A study of Homo sapiens with 28 samples.

Results

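The solute carrier (SLC) genes are the families of membrane proteins that move amino acids, sugars, nucleosides, metals, inorganic ions, organic ions and metabolites across the plasma membrane and the membranes of organelles. They were collected by symbol: SLC, a family number, a letter from A to G and a member number, or SLCO and a number, on a probe set annotated with 1 gene symbol. SLC2A1, SLC2A3, SLC3A2, SLC7A5 and SLC7A11 were left out by that rule. This gave 207 of the 11676 genes on the array table with a single-symbol probe set, each read from the probe set that was brightest on the mean of the 28 arrays. Of the 207, 197 carried a plain symbol and 10 a suffix, and those 10 are described apart because they are antisense or divergent transcripts, a pseudogene, or protein-coding neighbours and regulators named after a carrier. They stay in the counts over the 207, all of which are called carriers for short.

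Transcript levels came from 28 Affymetrix Human Genome U133 Plus 2.0 arrays of 7 cell lines established from acute myeloid leukaemia (AML): MOLM13, NOMO1, SHI1, THP1, GDM1, SKM1 and SKNO1. Cells of each line were grown for 96 hours (day 4) with 1 µM GSK3484862, labelled GSK862, which inhibits DNMT1, the methyltransferase that maintains DNA methylation, or with 0.1% DMSO, the vehicle. Each of the 14 groups, a line under a treatment, had 2 arrays, which the series design calls biological duplicates. P-values measure the spread between these duplicates, each line is a single leukaemia-derived culture, and the results concern these 7 lines.

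Signals are log2 values per probe set and ran from a common floor of 2.13 to 16.8. The median of an array was between 8.33 and 8.51. Signals at the floor have no order, and a change against the floor is limited by it. Duplicates that both sit at or next to the floor show little or no spread. They enter the spread shared by all groups, so standard errors and p-values of such genes can be too small. At least 1 array was at the floor for 19 of the 207 genes. The duplicates of a group had r = 0.990 to 0.998 over genes (genes are no replicates), with the lowest values in SKM1. Precision is limited by the number of arrays. Of the myeloid markers measured, SPI1 lay between 8.85 and 10.5, MPO between 6.84 and 15.6, LYZ between 9.07 and 15.5, PTPRC between 11.2 and 13.5 and CSF3R between 7.93 and 10.8 over the 28 arrays. CD33 and CD68 were not measured. Of markers of other cells, the fibroblast gene COL1A1 lay between 8.57 and 10.1, about as high as SPI1. The epithelial gene KRT8 lay between 4.84 and 7.54 and the B cell gene CD79A between 3.86 and 7.64. The source of the COL1A1 signal was not tested. In such bulk RNA, fewer cells of a kind and less RNA per cell cannot be told apart.

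A solute carrier binds its substrate on one side of a membrane, changes shape and releases it on the other, either down the substrate's own gradient or coupled to the gradient of another ion. Dividing leukaemia cells depend on carriers for glutamine, cationic amino acids, nucleosides, folate and iron, and the mitochondrial SLC25 family links the matrix to the cytosol. DNMT1 copies methylation of cytosine in CpG dinucleotides to the new DNA strand, so that promoter CpG content is the sequence feature closest to the target of the inhibitor; DNA methylation itself was not analysed here.

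Promoter windows of 5 carriers with large changes are printed to show how far their CpG content differs. Each runs from 250 bases before to 50 bases after the annotated start, from RefSeq on GRCh38.p14, 5′ to 3′ on the gene's strand, and the capitals mark the dinucleotide CG, which reads the same on both strands. The windows lie at chr6:36024592-36024891 (minus strand) for SLC26A8, chr4:48483093-48483392 (plus strand) for SLC10A4, chr1:153775157-153775456 (plus strand) for SLC27A3, chr6:111087253-111087552 (plus strand) for SLC16A10 and chrX:48470211-48470510 (minus strand) for SLC38A5. All overlap the annotated transcription start of their gene.
SLC26A8: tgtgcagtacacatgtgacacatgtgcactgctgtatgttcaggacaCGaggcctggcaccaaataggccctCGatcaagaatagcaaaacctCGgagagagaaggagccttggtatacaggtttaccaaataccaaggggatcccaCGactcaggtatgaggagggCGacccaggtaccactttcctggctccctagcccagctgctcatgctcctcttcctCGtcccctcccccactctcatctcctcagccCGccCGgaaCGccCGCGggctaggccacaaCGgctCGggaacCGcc
SLC10A4: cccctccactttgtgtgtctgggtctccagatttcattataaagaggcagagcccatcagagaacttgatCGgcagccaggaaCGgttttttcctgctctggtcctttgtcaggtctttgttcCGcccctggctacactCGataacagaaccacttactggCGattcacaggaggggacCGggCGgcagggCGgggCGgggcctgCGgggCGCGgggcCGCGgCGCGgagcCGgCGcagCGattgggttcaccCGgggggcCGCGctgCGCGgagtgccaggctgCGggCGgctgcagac
SLC27A3: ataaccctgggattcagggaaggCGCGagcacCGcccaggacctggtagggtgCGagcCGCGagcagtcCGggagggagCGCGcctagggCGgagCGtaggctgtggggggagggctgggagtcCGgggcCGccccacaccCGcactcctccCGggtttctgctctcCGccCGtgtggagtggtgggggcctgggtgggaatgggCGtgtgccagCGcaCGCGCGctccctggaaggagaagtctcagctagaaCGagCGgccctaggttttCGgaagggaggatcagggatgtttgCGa
SLC16A10: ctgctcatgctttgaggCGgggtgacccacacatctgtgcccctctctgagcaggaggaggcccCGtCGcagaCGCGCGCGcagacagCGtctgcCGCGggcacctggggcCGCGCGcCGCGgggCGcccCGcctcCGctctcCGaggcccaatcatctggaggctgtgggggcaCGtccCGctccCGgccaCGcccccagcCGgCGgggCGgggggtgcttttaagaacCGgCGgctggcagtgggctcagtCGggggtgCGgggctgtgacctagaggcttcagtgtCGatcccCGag
SLC38A5: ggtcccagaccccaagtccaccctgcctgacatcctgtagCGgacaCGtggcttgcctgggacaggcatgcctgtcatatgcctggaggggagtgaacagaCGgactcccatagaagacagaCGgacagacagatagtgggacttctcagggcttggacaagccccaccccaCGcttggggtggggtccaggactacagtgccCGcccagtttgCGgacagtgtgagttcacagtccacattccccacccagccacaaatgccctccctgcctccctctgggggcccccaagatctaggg

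The SLC38A5 window held 7 CpG in 300 bases, a count that 64.6% of the 27305 genes in the promoter table reached or passed. The SLC26A8 window held 14 CpG (53.15% of genes with at least as many) and those of SLC10A4 and SLC27A3 held 26 each (33.56%). The SLC16A10 window, of a gene that fell, was the richest of the 5 with 32 CpG (21.66%). These percentages are over the promoter table, with a gene of several entries counted by its richest, and not over the genes tested. The windows other than that of SLC16A10 lay under the median of the genes tested, given next. A promoter was in the table for 172 of the 207 genes. The median was 30 CpG for the carriers and 28 for all genes tested, and by call it was 30 for carriers that rose on average, 28 for those that fell and 30.5 for those not called. The 17 carriers with a promoter entry and a called rise of at least 1 log2 unit in a line had a median of 26 CpG, as had the 11 with a called fall of that size. These are counts of letters, with no test.

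The first comparison asked which carriers the inhibitor moved on average over the 7 lines. Carriers moved in both directions in similar numbers: 57 of the 207 rose and 61 fell at an adjusted p under 0.05 in limma, against 23.2% and 28.6% of all genes tested. Without the 10 suffix symbols 57 rose and 56 fell, of 197. The error behind these calls is the spread between duplicates. With the 7 lines as the units of replication, 9 carriers rose and 8 fell (2.54% and 4.53% of all genes), and of the 24 average calls of carriers named by rule 8 passed and 16 did not. The median change was 0.00 log2 units over the carriers and -0.02 over all genes, and both lay close to 0. Most changes were small. A single carrier, SLC7A7, rose by 1 log2 unit or more (1.38% of all genes did) and 0 fell by as much (0.0514%).

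Transport groups were set by family number. Over all genes 23.2% rose and 28.6% fell, the shares beside which the group counts stand. Among amino acid and peptide carriers 11 of 30 rose and 8 fell, and among inorganic ion and pH carriers 9 of 22 rose and 2 fell. Among mitochondrial SLC25 carriers falls outnumbered rises, as over all genes, with 8 of 34 up, 15 down and a median change of -0.08. Nucleotide sugar carriers of the Golgi and ER split 6 up and 8 down of 19, metal carriers 5 and 7 of 24, organic ion, bile acid, lipid and heme carriers 8 and 5 of 23, nucleoside and vitamin carriers 4 and 5 of 15, sugar carriers 3 and 3 of 16, and carboxylate carriers 1 and 2 of 5. Carriers of any other family number had 2 up and 1 down of 9. For carriers under other root symbols, a separate list of 41 genes of which 32 were measured, 9 rose and 11 fell, with a median of -0.06. The group medians lay close to that of all genes beside the spread of single members, and no test of a group was made.

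**Figure D1:**
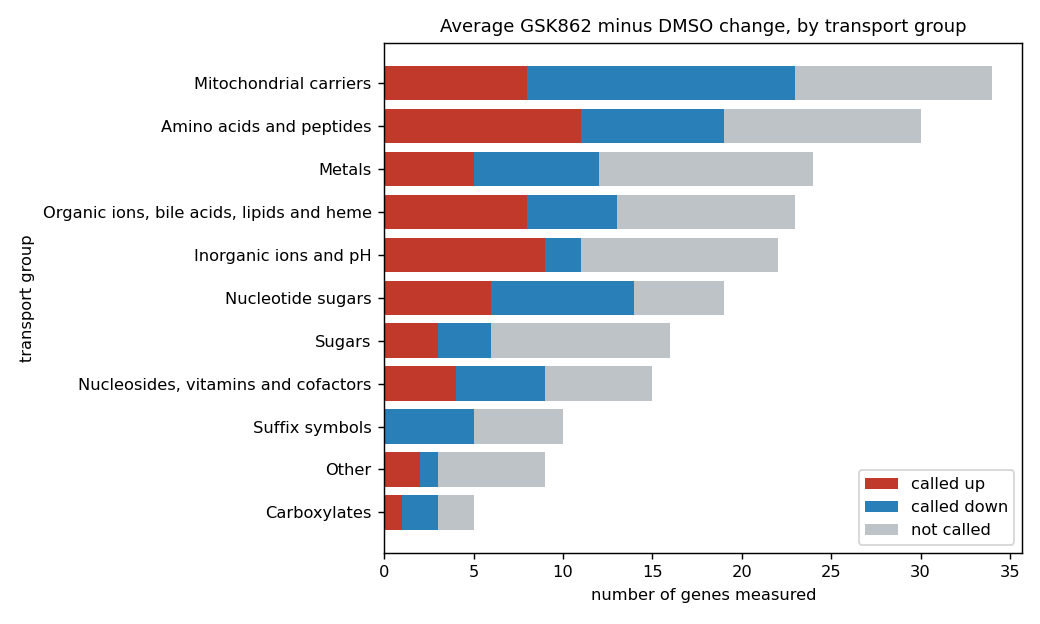
Number of solute carrier genes (horizontal axis) called up (red), called down (blue) or not called (grey) for the average GSK862 minus DMSO change over 7 lines, by transport group (vertical axis), with adjusted p under 0.05 in limma. Inorganic ion carriers divide 9 up to 2 down and mitochondrial carriers 8 up to 15 down. Over all genes 23.2% were called up and 28.6% down.

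Among amino acid carriers, SLC7A7, the light chain that exchanges cationic for neutral amino acids together with the SLC3A2 heavy chain, had the largest average rise, 1.05 ± 0.10 log2 units (SE, limma adjusted p = 2.4e-07), which did not pass with lines as units (adjusted p = 0.0828). In GDM1 its signal was 5.11 and 4.44 with GSK862, against 2.13 and 2.13 with DMSO. In SKM1 it was 6.20 and 5.70 with GSK862, against 3.43 and 3.72 with DMSO. Both treated arrays lay above both DMSO arrays in these lines, and the changes were 2.64 ± 0.26 in GDM1 (adjusted p = 9.4e-07) and 2.37 ± 0.26 in SKM1 (adjusted p = 5.4e-06, limma). In the other lines SLC7A7 differed by 0.00 (SKNO1, all 4 arrays at the floor) to 0.79 (THP1), and none of these passed. The DMSO arrays of GDM1 sat at the floor, so that the 6.23-fold ratio there is bounded by it.

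SLC15A3, a lysosomal carrier of histidine and small peptides, had 7.35 and 5.30 in SKM1 with GSK862, against 3.15 and 3.49 with DMSO, a change of 3.01 ± 0.49 (limma adjusted p = 0.00023). The treated SKM1 duplicates stood far apart, and both lay above the DMSO arrays. Its average rise of 0.68 ± 0.18 (adjusted p = 0.0058; 0.226 with lines as units) dropped to 0.29 (adjusted p = 0.109) without SKM1. SLC7A8, a light chain for neutral amino acids, had 8.86 and 8.43 in SHI1 with GSK862, against 6.98 and 7.39 with DMSO (1.46 ± 0.33, adjusted p = 0.019), a call that was lost without either DMSO array or without the first GSK862 array (adjusted p from 0.052 to 0.192). It also rose in SKM1, by 1.07 ± 0.33 (adjusted p = 0.021), and its average of 0.38 ± 0.12 (adjusted p = 0.016; 0.292 with lines as units) was 0.27 (adjusted p = 0.114) without SKM1 and 0.20 (adjusted p = 0.228) without SHI1.

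SLC38A5, a sodium-coupled carrier of glutamine, serine and glycine, fell by 0.77 ± 0.06 on average (limma adjusted p = 5.4e-08) and was called down in 5 lines. In GDM1 it read 6.52 and 6.28 with GSK862, against 8.30 and 8.18 with DMSO. In NOMO1 it read 8.20 and 8.46 with GSK862, against 9.18 and 9.45 with DMSO. The groups did not overlap in 6 of the 7 lines, and SHI1, where the DMSO arrays were at 2.83 and 2.13, was the exception. The fall in GDM1, -1.84 ± 0.17, was larger than the mean of the other 6 lines by -1.24 (adjusted p = 9.1e-05). Its promoter window, printed above, was the poorest of the 5 in CpG.

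SLC7A2, a carrier of arginine and other cationic amino acids, was detected well above its lowest signals in 3 lines and fell in all of these. THP1 had 4.55 and 3.57 with GSK862, against 5.91 and 6.12 with DMSO, a change of -1.95 ± 0.23 (limma adjusted p = 3.3e-05). MOLM13 had 8.34 and 8.63 with GSK862, against 9.71 and 9.43 with DMSO, and SKM1 8.81 and 9.14 with GSK862, against 9.49 and 9.80 with DMSO. In GDM1, SKNO1, NOMO1 and SHI1 its signal was between 2.27 and 2.58 with either treatment. The average of -0.51 ± 0.09 was -0.27 without THP1 and did not pass with lines as units (adjusted p = 0.212).

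Other amino acid carriers moved by less, with changes of a single sign over the lines that were close to 0 in some. These are given as examples chosen after their values were seen. SLC7A1, the ubiquitous cationic amino acid carrier, was lower in all 7 lines, by 0.10 to 0.52 log2 units, with an average of -0.25 ± 0.03 (limma adjusted p = 2.5e-06) and a call in 4 lines. SLC1A5, the main glutamine importer ASCT2, had a lower mean in all 7, with an average of -0.26 ± 0.03 (adjusted p = 8.8e-06). Its change in SKNO1 was -0.03 ± 0.09, and the groups overlapped there. On the other side, SLC6A6, the taurine carrier, and SLC38A10 had higher means in all 7 lines. Their averages were 0.32 ± 0.04 and 0.39 ± 0.04 (adjusted p = 5.0e-06 and 3.4e-07). In SKNO1 the SLC38A10 change was 0.03 ± 0.10, with groups that overlapped. Against the mean of the other 6 lines, the SLC38A10 change differed by -0.42 in SKNO1 and 0.50 in SHI1 (limma adjusted p = 0.025 and 0.014). With lines as units SLC7A1, SLC6A6 and SLC38A10 passed (adjusted p = 0.0491, 0.0404 and 0.0497) and SLC1A5 did not (adjusted p = 0.0844).

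Among carboxylate carriers, SLC16A10, which carries aromatic amino acids in spite of its family, had the largest average fall, -0.83 ± 0.04 (limma adjusted p = 1.7e-10). THP1 read 4.31 and 4.68 with GSK862, against 7.16 and 7.14 with DMSO, a change of -2.65 ± 0.10 (adjusted p = 4.8e-11) or a ratio of 0.159. SKM1 read 8.42 and 8.41 with GSK862, against 9.64 and 9.76 with DMSO. It was called down in all 5 lines where it was above the floor, and in MOLM13 and NOMO1 all 4 arrays were at the floor, so a fall could not be seen there. Without THP1 the average was -0.53, and with the lines as the units of replication it did not pass (adjusted p = 0.11).

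**Figure D2:**
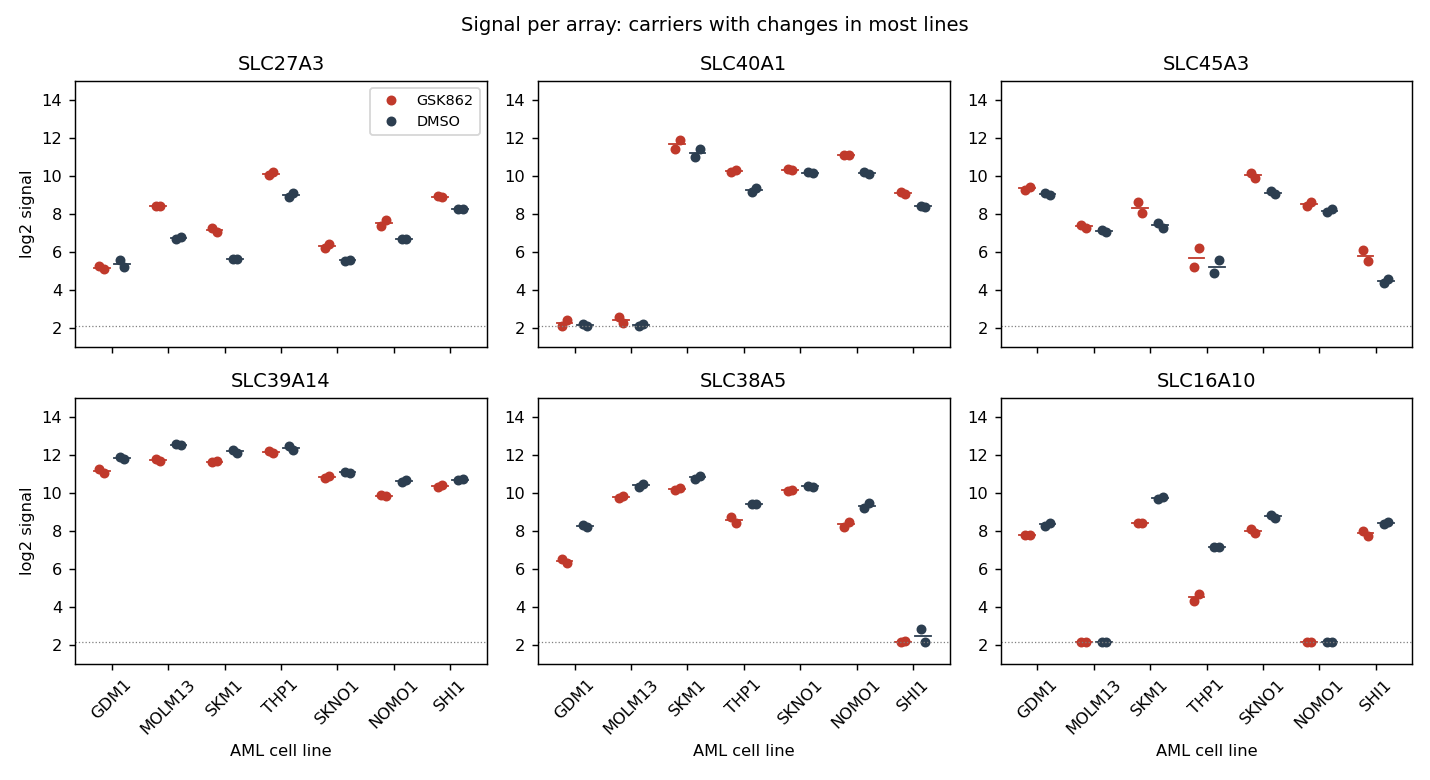
Log2 signal (vertical axis) of 6 carriers on each array, by cell line (horizontal axis), with GSK862 (red) left of DMSO (dark), points for the 2 arrays of a group, bars for their mean and a dotted line at the floor of 2.13. SLC27A3 is higher with GSK862 outside GDM1, and SLC39A14 is lower with GSK862 in every line.

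Among lipid and organic ion carriers, SLC27A3, a member of the fatty acid transport family with acyl-CoA synthetase activity, was the carrier called in most lines. It rose in 6 lines, by 0.64 to 1.69 log2 units, and the average was 0.91 ± 0.05 (limma adjusted p = 4.1e-10). In MOLM13 it read 8.43 and 8.43 with GSK862, against 6.67 and 6.80 with DMSO. In SHI1 it read 8.94 and 8.90 with GSK862, against 8.29 and 8.26 with DMSO. The exception was GDM1, with 5.26 and 5.12 with GSK862, against 5.58 and 5.22 with DMSO (-0.21 ± 0.12, adjusted p = 0.21), where the change was lower than the mean of the other 6 lines by -1.31 (adjusted p = 2.8e-06). SLC27A3 also passed with lines as units (adjusted p = 0.045).

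SLCO4C1, an organic anion carrier known from the kidney, was higher in all 7 lines, by 0.20 to 1.14, with an average of 0.68 ± 0.12 (limma adjusted p = 0.00017). In NOMO1 it read 11.33 and 11.32 with GSK862, against 10.64 and 10.29 with DMSO, and in MOLM13 6.66 and 6.80 with GSK862, against 5.61 and 5.57 with DMSO. The groups overlapped in SKNO1, and the difference in response between lines did not pass (F-test adjusted p = 0.55). MOLM13 was the line in which the change was called.

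SLC10A4, an orphan member of the bile acid carrier family, moved in opposite directions. SKNO1 had 7.82 and 8.22 with GSK862, against 5.22 and 6.72 with DMSO, a rise of 2.05 ± 0.33 (limma adjusted p = 0.00099). SHI1 had 3.86 and 3.81 with GSK862, against 5.42 and 5.17 with DMSO, and NOMO1 3.26 and 3.61 with GSK862, against 4.20 and 5.11 with DMSO, falls of -1.46 ± 0.33 (adjusted p = 0.020) and -1.22 ± 0.33 (adjusted p = 0.025). The groups did not overlap in any of these 3 lines. THP1, the line with the highest signal, had 11.12 and 10.88 with GSK862, against 11.06 and 11.17 with DMSO. The response differed between lines (F-test adjusted p = 0.00049), and the SHI1 fall lost its call when any 1 of its 4 arrays was left out (adjusted p from 0.0765 to 0.151).

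SLC67A1, also known by the older symbol SLC22A18, lies in an imprinted region and was counted with carriers of any other family number. It rose in MOLM13 (8.02 and 7.96 with GSK862, against 6.40 and 6.16 with DMSO), in SKM1 and in GDM1. The average was 0.59 ± 0.07 (limma adjusted p = 2.1e-06; 0.12 with lines as units), and in SKNO1 and NOMO1 the groups overlapped. SLC22A15, an orphan organic ion carrier, read 10.01 and 10.01 in MOLM13 with GSK862, against 9.09 and 9.10 with DMSO (0.92 ± 0.09, adjusted p = 6.4e-07). The other 6 lines had changes between -0.02 and 0.23 that did not pass, and without MOLM13 the average of 0.19 ± 0.03 was 0.07 (adjusted p = 0.129). That average did not pass with lines as units (adjusted p = 0.272).

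Among nucleoside and vitamin carriers, SLC28A3, the concentrative nucleoside carrier CNT3, rose in THP1 and SKNO1. THP1 had 4.14 and 4.68 with GSK862, against 2.13 and 2.13 with DMSO (2.28 ± 0.16, limma adjusted p = 1.4e-07). SKNO1 had 5.92 and 6.27 with GSK862, against 3.80 and 3.36 with DMSO (2.51 ± 0.16, adjusted p = 4.0e-08). In SHI1, where the signal was high already, it read 9.81 and 9.83 with GSK862, against 9.61 and 9.54 with DMSO, and GDM1 and NOMO1 stayed at or next to the floor. The average of 0.76 ± 0.06 was 0.47 without SKNO1 and did not pass with lines as units (adjusted p = 0.196). The equilibrative nucleoside carrier SLC29A1, chosen after its values were seen, moved the other way, by -0.35 ± 0.04 on average (adjusted p = 1.7e-06, and 0.148 with lines as units), with a call in 3 lines. In SHI1 it was higher, at 9.88 and 9.85 with GSK862, against 9.70 and 9.55 with DMSO (0.24 ± 0.10, limma adjusted p = 0.28). That change exceeded the mean of the other 6 lines by 0.69 (limma adjusted p = 0.0020).

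SLC44A2, a choline carrier-like protein, had 5.85 and 6.99 in SKM1 with GSK862, against 3.93 and 4.46 with DMSO (2.22 ± 0.40, limma adjusted p = 0.0005). In GDM1 it had 5.81 and 4.48 with GSK862, against 3.15 and 4.14 with DMSO (1.50 ± 0.40, adjusted p = 0.0073), a call that was lost without the first GSK862 array (0.83, adjusted p = 0.151) or without the first DMSO array (1.00, adjusted p = 0.128). In the other 5 lines its signal stayed under 4. Without SKM1 its average rise of 0.52 ± 0.15 was 0.24 (adjusted p = 0.187), and it did not pass with lines as units (adjusted p = 0.279). Among vitamin carriers chosen after their values were seen, the reduced folate carrier SLC19A1 fell by 0.19 ± 0.04 and the thiamine carrier SLC19A2 by 0.39 ± 0.05 on average (adjusted p = 0.0012 and 8.0e-06; 0.107 and 0.0867 with lines as units).

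Among nucleotide sugar relatives, SLC35F1, an orphan member of the family, had the largest change of any named carrier in a line. MOLM13 had 9.23 and 9.53 with GSK862, against 4.78 and 3.84 with DMSO, a rise of 5.07 ± 0.28 log2 units (limma adjusted p = 1.2e-09) or 33.6-fold. With GSK862, MOLM13 thus reached about the signal of SKM1, which read 9.53 and 9.56 with GSK862, against 9.38 and 9.44 with DMSO. NOMO1 and SHI1 were higher still with either treatment, and GDM1, THP1 and SKNO1 stayed under 5. The rise in MOLM13 exceeded the mean change of the other 6 lines by 4.98 (adjusted p = 7.4e-09), and without MOLM13 the average of 0.80 ± 0.11 was 0.09 (adjusted p = 0.469). With lines as units that average did not pass (adjusted p = 0.394).

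SLC35F2, another orphan of the family, fell by 0.44 ± 0.04 on average (limma adjusted p = 2.1e-07) with calls in 5 lines. GDM1 read 10.64 and 10.62 with GSK862, against 11.42 and 11.35 with DMSO. SKNO1, with 12.15 and 12.17 with GSK862, against 12.15 and 12.08 with DMSO, was the line without a lower signal, and its change differed from that of the other 6 lines by 0.57 (adjusted p = 0.0070). SLC35G1 was lower in all 7 lines, with its largest fall in THP1 (3.42 and 2.61 with GSK862, against 4.85 and 4.86 with DMSO), and its average of -0.61 ± 0.09 was -0.41 without THP1 and did not pass with lines as units (adjusted p = 0.073). SLC35B4, a Golgi carrier of UDP-xylose and UDP-N-acetylglucosamine chosen after its values were seen, fell evenly, by 0.20 to 0.35 in the 7 lines with an average of -0.29 ± 0.03 (adjusted p = 1.4e-06). A difference of that response between lines was not detected (F-test adjusted p = 0.79).

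Among inorganic ion carriers, SLC26A8, an anion exchanger known from sperm, was at the floor on 20 of the 28 arrays. It rose in the lines where it was above the floor: MOLM13 had 6.47 and 6.64 with GSK862, against 2.66 and 3.19 with DMSO (3.63 ± 0.22, limma adjusted p = 3.6e-09, 12.3-fold). NOMO1 had 6.64 and 7.10 with GSK862, against 4.88 and 5.89 with DMSO (1.49 ± 0.22, adjusted p = 0.00038). The 5 other lines stayed at the floor with both treatments. Their duplicates show no spread, so these standard errors and p-values can be too small. Without MOLM13 the average of 0.73 ± 0.08 was 0.25. That average did not pass with lines as units (adjusted p = 0.296). SLC26A9, a chloride carrier of epithelia, read 4.07 and 2.75 in NOMO1 with GSK862, against 2.13 and 2.13 with DMSO. That call (1.27 ± 0.29, adjusted p = 0.0084) was lost without the first GSK862 array (0.62, adjusted p = 0.124) or without the second DMSO array (adjusted p = 0.0562).

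SLC9B2, a sodium-proton exchanger, was lower in all 7 lines, with -0.62 ± 0.10 on average (limma adjusted p = 0.00012). In SHI1 the difference was -0.07 ± 0.28, and the groups overlapped. NOMO1 had 3.19 and 3.35 with GSK862, against 6.15 and 5.04 with DMSO (-2.33 ± 0.28, adjusted p = 4.2e-05), and THP1 5.39 and 6.35 with GSK862, against 6.66 and 6.99 with DMSO. Without NOMO1 the average was -0.33, and it did not pass with lines as units (adjusted p = 0.157). SLC8B1, the mitochondrial sodium-calcium exchanger, chosen after its values were seen, was higher in all 7 lines by 0.05 to 0.58, with an average of 0.33 ± 0.03 (adjusted p = 3.8e-07; 0.05002 with lines as units) and calls in 4 lines.

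**Figure D3:**
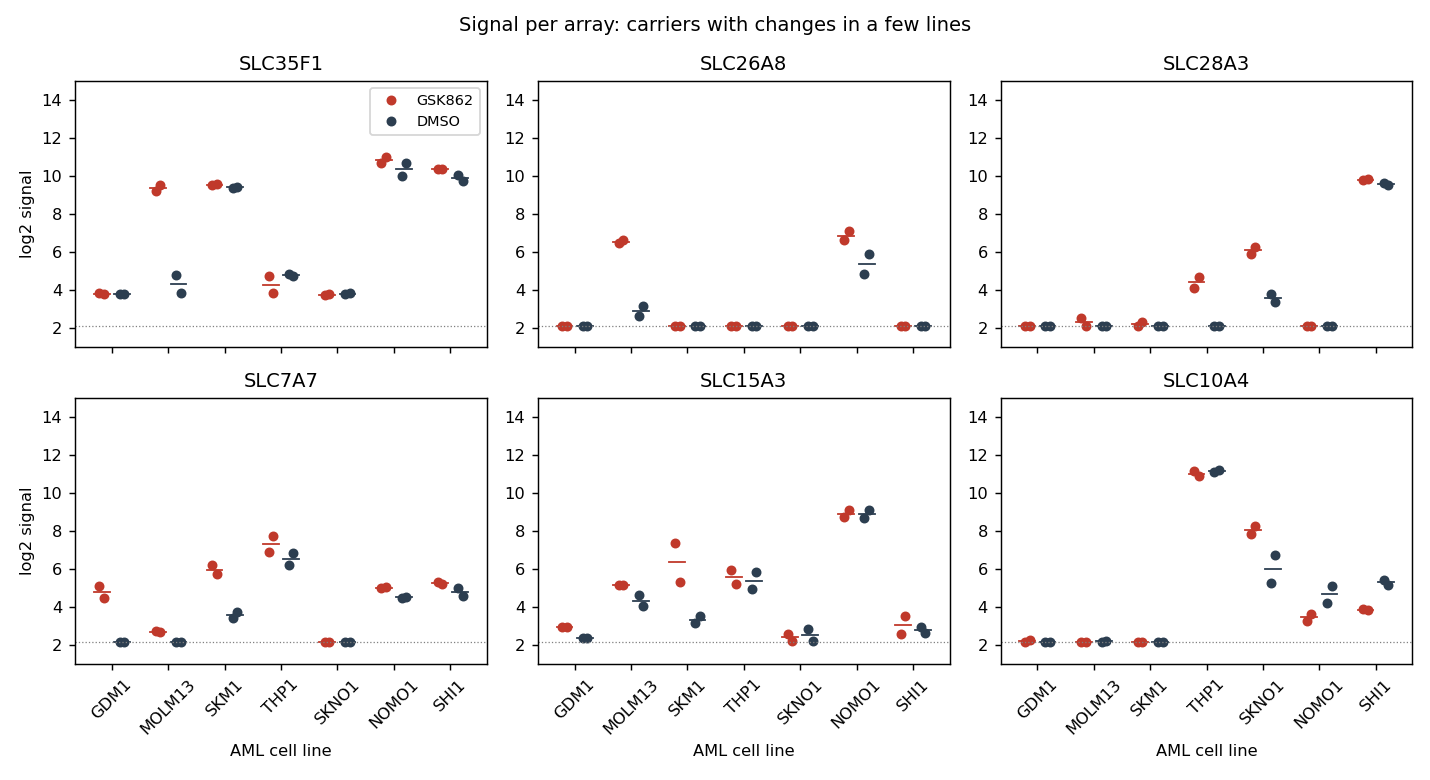
Log2 signal (vertical axis) of 6 carriers on each array, by cell line (horizontal axis), with GSK862 (red) left of DMSO (dark), points for the 2 arrays of a group, bars for their mean and a dotted line at the floor of 2.13. SLC35F1 in MOLM13 moves to about the signal of SKM1, and SLC10A4 is higher with GSK862 in SKNO1 and lower in NOMO1 and SHI1.

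Among metal carriers, SLC40A1, which encodes ferroportin, the cellular iron exporter, was higher in all 7 lines, by 0.11 to 0.97, with an average of 0.51 ± 0.06 (limma adjusted p = 1.7e-06). THP1 read 10.20 and 10.30 with GSK862, against 9.16 and 9.39 with DMSO. NOMO1 read 11.12 and 11.13 with GSK862, against 10.24 and 10.09 with DMSO, and SHI1 9.15 and 9.08 with GSK862, against 8.43 and 8.40 with DMSO. The groups were apart in all 3, while GDM1 and MOLM13 stayed under 2.6 and the SKM1 groups overlapped. SLC40A1 also passed with lines as units (adjusted p = 0.049).

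SLC39A14, the importer ZIP14 for zinc and non-transferrin iron, was lower in all 7 lines with both treated arrays below both DMSO arrays in each. MOLM13 had 11.75 and 11.68 with GSK862, against 12.55 and 12.50 with DMSO (-0.81 ± 0.08, limma adjusted p = 2.2e-06). NOMO1 had 9.86 and 9.82 with GSK862, against 10.56 and 10.68 with DMSO, and THP1, with the smallest difference, 12.18 and 12.10 with GSK862, against 12.45 and 12.25 with DMSO. The average was -0.51 ± 0.03 (adjusted p = 2.8e-09), calls were made in 5 lines, and the gene passed with lines as units (adjusted p = 0.04). Its close relative SLC39A8, chosen after its values were seen, was also lower in all 7 lines, with an average of -0.36 ± 0.05 (adjusted p = 8.5e-06; 0.0564 with lines as units).

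SLC30A5, a zinc carrier of the secretory pathway, rose in GDM1, with 12.63 and 12.55 with GSK862, against 11.57 and 11.58 with DMSO (1.02 ± 0.07, limma adjusted p = 2.5e-08). In the other 6 lines its changes lay between -0.13 and 0.16 and none passed. The GDM1 change exceeded the mean of the other 6 by 0.98 (adjusted p = 2.0e-07), and the average of 0.17 ± 0.03, which did not pass with lines as units (adjusted p = 0.376), was 0.03 without GDM1 (adjusted p = 0.393). Of the 5 probe sets for SLC30A5, 4 moved in the same direction on average.

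Among sugar carriers, SLC45A3, a sugar carrier relative known from the prostate, was higher in all 7 lines, with an average of 0.65 ± 0.11 (limma adjusted p = 9.3e-05). In SHI1 it read 6.09 and 5.53 with GSK862, against 4.40 and 4.57 with DMSO (1.32 ± 0.28, adjusted p = 0.013), and with the mean of its 2 probe sets that change was 0.64 (adjusted p = 0.11). The SHI1 call was also lost without either DMSO array or without the first GSK862 array (adjusted p from 0.0638 to 0.187). In SKM1 it read 8.66 and 8.04 with GSK862, against 7.55 and 7.29 with DMSO. The groups overlapped in THP1. SLC37A2, a sugar-phosphate exchanger of the ER, had 4.38 and 4.39 in SKNO1 with GSK862, against 6.48 and 5.47 with DMSO (-1.59 ± 0.43, adjusted p = 0.037), a call lost without the first DMSO array (-1.09, adjusted p = 0.353) or without either GSK862 array (adjusted p = 0.135 and 0.143). Its average, 0.06 ± 0.16, did not pass.

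Among mitochondrial carriers, the largest average fall was that of SLC25A10, which exchanges malate and succinate for phosphate. GDM1 had 6.99 and 6.78 with GSK862, against 8.25 and 8.03 with DMSO (-1.25 ± 0.12, limma adjusted p = 5.9e-07), and MOLM13 8.83 and 8.98 with GSK862, against 9.57 and 9.33 with DMSO. The average of -0.31 ± 0.04 (adjusted p = 2.2e-05; 0.2 with lines as units) was -0.16 without GDM1. The other 14 mitochondrial carriers that fell did so by 0.08 to 0.30. They included SLC25A13, an aspartate-glutamate carrier (-0.26 ± 0.04), SLC25A32, a folate and flavin carrier (-0.21 ± 0.03), and SLC25A38, which serves heme synthesis (-0.18 ± 0.02). Each had a lower mean in all 7 lines, but in SKNO1 the differences were -0.007, -0.03 and -0.007 and none passed. The 8 that rose included SLC25A20, the carnitine-acylcarnitine carrier (0.25 ± 0.04), and SLC25A24, an ATP-magnesium carrier (0.31 ± 0.06). These 5 were chosen after their values were seen, with adjusted p between 1.8e-05 and 0.00035. With lines as units SLC25A20 passed (adjusted p = 0.0487) and SLC25A13, SLC25A32, SLC25A38 and SLC25A24 did not (adjusted p from 0.0701 to 0.118). The phosphate carrier SLC25A3 and the ADP/ATP carrier SLC25A5 had averages of 0.02 ± 0.04 and -0.02 ± 0.03, which did not pass (adjusted p = 0.60 and 0.56).

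Of the 10 symbols with a suffix, 0 rose and 5 fell, against 23.2% and 28.6% of all genes, and no test was made of a count over so few. SLC16A1-AS1, an antisense RNA at the gene of the lactate carrier MCT1, was lower in all 7 lines, with an average of -0.59 ± 0.06 (limma adjusted p = 1.2e-06). In GDM1 it read 5.79 and 5.79 with GSK862, against 7.52 and 6.91 with DMSO, and both treated arrays lay below both DMSO arrays in every line. The others that fell were SLC9A3-AS1, SLC9A3-OT1, SLC2A4RG and SLC7A6OS, by 0.14 to 0.39.

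The second comparison asked which carriers moved in each line. In GDM1 34 carriers rose and 45 fell, against 13.3% and 20.5% of all genes. In MOLM13 the counts were 43 and 36 (13.7% and 15.4% of all genes) and in SKM1 23 and 35 (14.1% and 14%). THP1 had 14 and 21 (5.40% and 8.30%) and NOMO1 11 and 16 (4.21% and 7.55%). SKNO1 had 7 and 10 (2.96% and 3.12%) and SHI1 11 and 6 (2.52% and 0.899%). These counts rest on a spread shared by all lines. Fitted on its own 4 arrays, GDM1 had 16 up and 27 down, MOLM13 26 and 17, and the other 5 lines 0 and 0, with 45 to 72 carriers at an unadjusted limma p under 0.05. With 1 array left out, the calls ranged from 1 to 13 up and 2 to 6 down in SHI1, 5 to 8 and 2 to 10 in SKNO1, 8 to 13 and 4 to 19 in NOMO1, and 8 to 17 and 7 to 25 in THP1. The ranges were 21 to 34 up and 34 to 46 down in GDM1, 28 to 44 and 19 to 37 in MOLM13, and 18 to 26 and 27 to 37 in SKM1. The order of the lines by number of calls among carriers thus resembled the order over all genes.

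**Figure D4:**
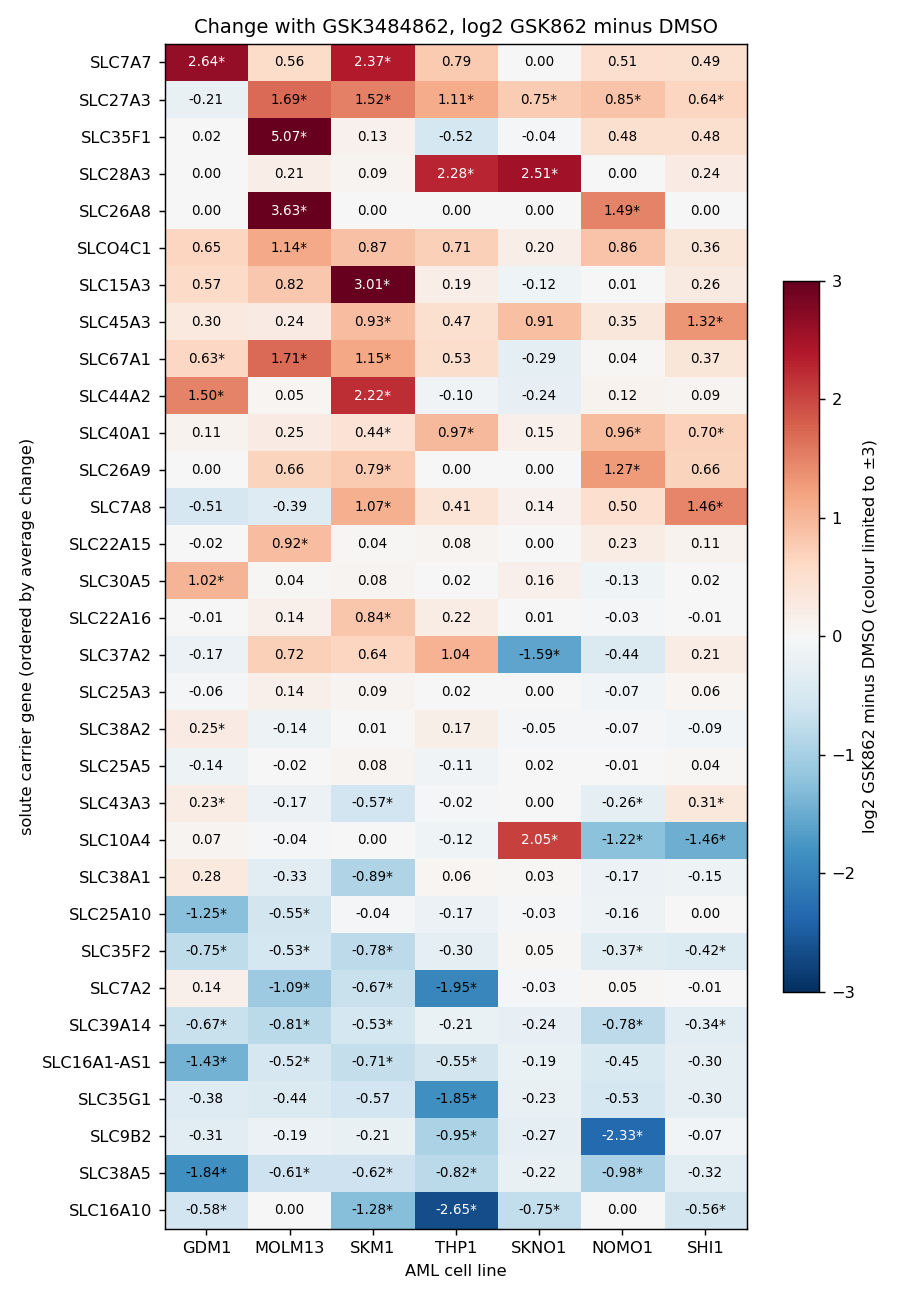
Change in log2 signal, GSK862 minus DMSO, for the 32 carriers named by rule (vertical axis, ordered by average change) in the 7 lines (horizontal axis), with red for higher and blue for lower and an asterisk where limma's adjusted p was under 0.05. Large rises of SLC35F1, SLC26A8, SLC15A3 and SLC28A3 stand in 1 or 2 lines each, while the SLC39A14 and SLC38A5 rows are blue throughout.

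In at least 4 lines, 7 carriers were called up and 14 down, against 2.50% and 4.30% of all genes. SLC27A3 was called up in 6 lines, and SLC40A1, SLC43A2, SLC66A3, SLC38A10, SLC8B1 and SLC26A2 in 4. SLC39A14, SLC38A5, SLC16A10, SLC35F2 and SLC35B4 were called down in 5. SLC7A1, SLC39A6, SLC25A38, SLC25A46, SLC37A4, SLC5A6, SLC27A2, SLCO4A1 and the antisense RNA SLC16A1-AS1 were called down in 4, and 0 carriers were called in all 7 in either direction. At the other end, 56 carriers were called in no line (35.6% of all genes). On the average, 12 carriers were called up with the same sign in all 7 lines (5.96% of all genes) and 19 were called down with the same sign (9.98%).

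The response differed between lines for 99 of the 207 carriers by limma's moderated F-test, against 37.5% of all genes. Called rises in at least 1 line and called falls in at least 1 other were found for 14 carriers (5.25% of all genes). SLC43A3, a purine base carrier, was the one with 2 lines on each side: it rose in GDM1 (12.08 and 12.16 with GSK862, against 11.94 and 11.84 with DMSO) and SHI1 and fell in NOMO1 (13.07 and 13.11 with GSK862, against 13.30 and 13.40 with DMSO) and SKM1. SLC39A6, the zinc importer ZIP6, chosen after its values were seen, fell in GDM1, MOLM13, SKM1 and THP1 and rose in NOMO1, where it read 12.24 and 12.15 with GSK862, against 12.02 and 11.98 with DMSO (0.19 ± 0.06, adjusted p = 0.043). SLC38A2, a sodium-coupled neutral amino acid carrier, rose by 0.25 ± 0.06 in GDM1 (adjusted p = 0.0062), although 1 of its 3 probe sets alone had the sign of the average.

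Set against the mean of the other 6 lines, the change was higher for 23 carriers and lower for 41 in GDM1 (23.1% of all genes were called in either direction). MOLM13 had 22 higher and 9 lower (11.3%), SKM1 9 and 17 (12.1%), SKNO1 11 and 11 (7.49%), NOMO1 7 and 10 (5.86%), THP1 4 and 9 (3.73%) and SHI1 6 and 4 (4.33%). The named carriers higher in GDM1 by this test included SLC7A7, by 1.85 (adjusted p = 0.00014), and SLC30A5. In MOLM13 they included SLC35F1, SLC26A8 (by 3.38, adjusted p = 3.9e-08) and SLC67A1 (by 1.30, adjusted p = 0.00018). In THP1, SLC16A10 was lower by -2.13 (adjusted p = 5.4e-09). Some of the other lines were at the floor with both treatments: SKNO1 for SLC7A7, MOLM13 and NOMO1 for SLC16A10, and all but NOMO1 for SLC26A8. No change can be read there, so these differences do not show a weaker response in those lines.

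The vehicle-treated lines themselves differed widely. The DMSO level differed between lines for 203 of the 207 carriers by the F-test, but so did that of 97.0% of all genes. The range of DMSO group means had a median of 1.95 log2 units and a highest value of 9.97, with 33 carriers at 5 or more and 33 under 1. Against the mean of the other 6 lines, the DMSO level of 61 carriers was higher and of 96 lower in GDM1, where 74.4% of all genes differed. The counts were 70 and 75 in MOLM13 (68.6% of all genes), 83 and 66 in SKM1 (67.6%), 78 and 72 in THP1 (70.3%), 86 and 77 in SKNO1 (74.0%), 83 and 72 in NOMO1 (72.2%) and 77 and 86 in SHI1 (67.8%). The widest was that of SLC22A16, a carnitine carrier, with a mean of 12.1 in THP1 and 2.17, next to the floor, in GDM1. With inhibitor its groups overlapped in 6 of the 7 lines, THP1 being apart by 0.22, and the average change was 0.17 ± 0.11 (limma adjusted p = 0.23). A change of 0.84 ± 0.30 was called in SKM1 (adjusted p = 0.0455), where the groups overlapped.

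Some carriers were near the floor in a single vehicle-treated line. SLC22A15 was at 2.13 in SKNO1, which was -7.24 from the mean of the other 6 (limma adjusted p = 1.0e-21), and stayed at the floor with GSK862. SLC38A5 had a DMSO mean of 2.48 in SHI1 (-7.27 from the others, adjusted p = 1.7e-17). SLC40A1 was near the floor in both GDM1 and MOLM13, at 2.18 each, against 8.42 to 11.2 in the other 5 lines. SLC10A4 was the reverse, at 11.1 in THP1 and -0.12 ± 0.33 with inhibitor there.

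The brightest probe sets among the carriers were those of SLC25A5, SLC25A3, SLC38A2, SLC38A1 and SLC43A3, with DMSO means between 11.7 and 15.0 in every line. Brightness depends on the probe set, so no order of RNA amounts follows. Their changes were all under 1 log2 unit, and the largest was that of SLC38A1, a glutamine carrier, in SKM1, which read 11.35 and 10.32 with GSK862, against 12.16 and 11.31 with DMSO (-0.89 ± 0.24, limma adjusted p = 0.012), with groups that overlapped.

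**Figure D5:**
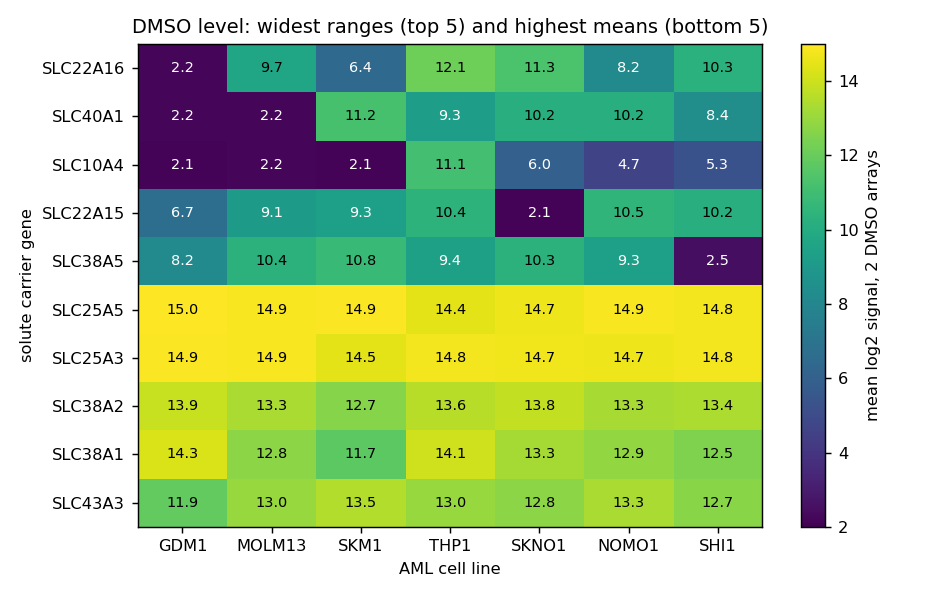
Mean log2 signal of the 2 DMSO arrays (colour and number) of 10 carriers (vertical axis) in the 7 lines (horizontal axis), the 5 with the widest range between lines above and the 5 with the brightest probe sets underneath. SLC22A16 spans 2.17 in GDM1 to 12.1 in THP1, while SLC25A5 and SLC25A3 are near the top of the scale in all lines.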

How the data were processed

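RNA of 7 AML cell lines under 2 treatments, 28 arrays in 14 groups, was measured on Affymetrix arrays, and the labels gave group and replicate number. A single table of log2 values for 27306 probe sets was deposited. How the authors corrected, summarised, normalized or filtered it is not given in the sources used here. The submitters' processing notes name limma without a version. The deposited log2 values were used as they stood, and 0 per-sample columns were left out. Gene symbols came from the platform annotation, which can be old: 22580 probe sets had 1 symbol, 1098 several and 3628 none. Each gene was read from its brightest single-symbol probe set on the mean of the 28 arrays, and 109 of the 207 carriers had several.

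Changes were fitted with lmFit and eBayes of limma 3.58.1 (R 4.3.3) as 1 model of 14 groups with 14 residual degrees of freedom. Contrasts were the mean of the 7 within-line changes, the change in each line, the F-test of differences between lines in change or DMSO level, and a line minus the mean of the other 6. Two-sided p-values were adjusted over all 11676 genes (Benjamini-Hochberg) and called under 0.05. Changes are log2 GSK862 minus DMSO, and ± gives the fit's standard error. The fit was tested on simulated data. Figures were drawn with matplotlib 3.10.9.

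The carriers, transport groups, naming rule and alternatives were chosen with earlier results of these data known. The rule named the 10 largest average rises and 8 largest falls among called carriers, the 2 largest rises and the largest fall in each line with duplicates of the treatments apart, the 5 smallest F-test p-values, the 5 widest DMSO ranges (of carriers whose DMSO mean passed the table's median in a line), the 5 highest DMSO means, and the called carrier with the largest average change in each transport group. Other genes were named for their counts of lines or after their values were seen.

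The alternatives were quantile normalization, median centring, a filter on low values, the mean of all probe sets, leaving out cross-hybridising probe sets, trend and robust options, an adjusted p under 0.01, the replicate number as a block, lines as units, each line on its own 4 arrays, each line or array left out, and leaving out suffix symbols.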

Additional observations from a re-analysis of the deposited data

Results flagged for a closer look

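The response to GSK862 differed between lines, by limma's moderated F-test, for 25 of the carriers named by rule. That rule chose carriers partly by small F-test p-values and by large changes in single lines, so a high count was built in. The count therefore does not measure how common such differences were among carriers. Without that selection, the F-test called 99 of the 207 carriers, against 37.5% of all genes. The size given here is the widest difference, in log2 units, between the GSK862 minus DMSO changes of 2 lines. It was widest for SLC35F1 (5.59), SLC26A8 (3.63), SLC10A4 (3.51) and SLC15A3 (3.13). It was 2.65 for SLC16A10, 2.64 for SLC7A7, 2.63 for SLC37A2, 2.52 for SLC28A3, 2.47 for SLC44A2, 2.26 for SLC9B2, 2.10 for SLC7A2 and 2.00 for SLC67A1. Between 1 and 2 log2 units were SLC7A8 (1.97), SLC27A3 (1.91), SLC38A5 (1.62), SLC35G1 (1.62), SLC25A10 (1.25), SLC16A1-AS1 (1.24) and SLC30A5 (1.14). The narrowest were SLC22A15 (0.937), SLC43A3 (0.879), SLC40A1 (0.860), SLC35F2 (0.826), SLC39A14 (0.598) and SLC38A2 (0.392). For SLC7A7, SLC26A8, SLC28A3, SLC16A10 and SLC22A15 some lines were at the floor with both treatments, where no change can be read. Other carriers lay close to the floor with both treatments in some lines. Examples were SLC40A1 in GDM1 and MOLM13, SLC7A2 in GDM1, SKNO1, NOMO1 and SHI1, and SLC10A4 in GDM1, MOLM13 and SKM1. The widest differences of SLC40A1 and SLC7A2 were between THP1 and GDM1, so they rest on such a line.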

How the results depend on the processing

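No change of direction was seen under the alternatives run among the average calls and single-line changes of carriers named by rule. The direction of other carriers was not checked. With each of the 28 arrays left out in turn the average calls were 54 to 60 up and 56 to 64 down, but with 1 array per group, replicate 1 or 2 of every group left out, 0 and 0 were called (limma with line and treatment as terms), with 51 and 66 carriers at an unadjusted p under 0.05. Calls with 1 array left out ranged from 21 to 34 up and 34 to 46 down in GDM1, 28 to 44 and 19 to 37 in MOLM13, 18 to 26 and 27 to 37 in SKM1, 8 to 17 and 7 to 25 in THP1, 5 to 8 and 2 to 10 in SKNO1, 8 to 13 and 4 to 19 in NOMO1, and 1 to 13 and 2 to 6 in SHI1. They ranged from 86 to 109 for the response F-test, 202 to 203 for the DMSO F-test, and 147 to 200 (change) and 1045 to 1099 (DMSO level) for single lines against the others. With lines as units 9 carriers rose and 8 fell (2.54% and 4.53% of all genes), and 8 of the 24 named carriers called on average were still called. Each line on its own 4 arrays gave 16 up and 27 down in GDM1, 26 and 17 in MOLM13, and 0 and 0 in SKM1, THP1, SKNO1, NOMO1 and SHI1, where 51, 72, 45, 57 and 54 carriers had an unadjusted limma p under 0.05, with fewer arrays in the fit. At an adjusted p under 0.01 the counts that moved most are given. They were 20 up in GDM1, 27 up and 19 down in MOLM13, 14 and 22 in SKM1, and 9 and 9 in THP1. In SKNO1 2 were called down, with 7 and 8 in NOMO1 and 3 and 3 in SHI1. The response F-test called 58, and single lines against the others gave 91 calls. Counts not listed, among them falls in GDM1, rises in SKNO1 and the average calls, stayed closer in proportion to the main counts. Calls down in SKNO1 were 6 after quantile normalization and 4 after median centring, which also gave 9 down in NOMO1 and 7 up in SHI1, and the filter on low values, with 165 carriers kept, gave 7 up in NOMO1; the cause was not tested. With the replicate number as a block the average calls were 60 up and 63 down, and no named call was lost. Same-numbered arrays deviated together in SKNO1 (r = 0.39), SKM1 (r = 0.37) and NOMO1 (r = 0.31). In the other lines r lay between -0.10 (GDM1) and 0.09 (THP1), so the numbers were not taken as pairs. The SHI1 calls of SLC7A8 and SLC45A3 were lost without either DMSO array or the first GSK862 array, and the SKNO1 call of SLC37A2 without either GSK862 array. The scalings moved the median average change of all genes by less than 0.01 log2 units.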
